A study of Rattus norvegicus with 8 samples.

Results

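The genes described are 10 that encode the receptors with which a hepatocyte senses drugs, bile acids, oxysterols and fatty acids, together with the partners these receptors work with. They are Nr1i3, Nr1i2, Ahr, Arnt, Rxra, Nr1h4, Nr0b2, Nr1h3, Ppara and Por, and they were taken by gene name from the array's annotation. The array held 15 probes for them among 45598 probes in all, and 14 of these 15 were among the 23111 probes that were well above background often enough to be tested. All 10 genes had at least 1 tested probe. Where a gene had several, its brightest tested probe is given, and the other probes are reported beside it.

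Laser microdissection (LMD) was used to cut cells from frozen sections of F344 rat liver. All animals had received retrorsine (Ret), an alkaloid that blocks division of mature hepatocytes (MHs), followed by partial hepatectomy (PH). Under this regimen clusters of small hepatocyte-like progenitor cells (SHPCs) grow within the remaining parenchyma. The 8 samples were 2 of MHs and 3 of SHPC clusters, all of these 5 from control livers according to the labels, and 3 of SHPC clusters from livers that had received bone marrow mesenchymal cells (BM-MCs) through the spleen, called BM-MC SHPCs here. The labels give the strain as DPPIV+, whereas the methods describe the recipients as female F344 rats of the DPPIV- strain and the donor cells as cultures from the marrow of a male DPPIV+ rat. The labels state no age and no time of harvest, and they do not say which animal gave which sample, so each p-value refers to the spread between cut samples and that spread may be partly technical. All arrays came from 1 slide and 1 scan. MHs 1 and 2 were in the first set of 4 arrays with control SHPCs 1 and 2, and control SHPC 3 was in the second set with the BM-MC samples.

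Levels are log2 signals relative to the 75th percentile of the same array, so that 0 is the level of a bright probe and each unit is a doubling. Levels of different probes cannot be set against each other. Differences were tested with limma, with Benjamini-Hochberg adjustment over all 23111 probes, and a call is an adjusted p under 0.05. Of the 9 hepatocyte markers, which include Alb, Ttr and Hnf4a, all 9 were tested, and Alb lay between 6.83 and 7.22 in every sample. Their mean level was 4.98 in both MHs, 5.12 to 5.52 in control SHPCs and 5.01 to 5.41 in BM-MC SHPCs. In MHs 8 of the 9 were below the control mean and 0 were called by limma (3 lower unadjusted, against 8.21% of all probes). These 3, named after their values were seen, were Tat at -1.04, Cps1 at -0.92 and Apoa1 at -0.73, with adjusted p values of 0.18, 0.23 and 0.18 by limma. Of the markers of other cells, 5 of 6 biliary and 5 of 9 blood cell markers were bright enough to be tested, while the biliary marker Spp1, the lymphoid markers Cd3e and Cd8a and the myeloid marker Mpo were not, and Cd79a was not matched to a probe. In samples cut from tissue, fewer cells of a type and less RNA per cell cannot be told apart.

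Most of these proteins are nuclear receptors, transcription factors switched by a small lipophilic ligand. PXR (Nr1i2) and CAR (Nr1i3) answer to drugs and other foreign compounds and induce cytochrome P450s, conjugating enzymes and transporters. FXR (Nr1h4) binds bile acids, LXRα (Nr1h3) oxysterols and PPARα (Ppara) fatty acids. All of them bind DNA together with RXRα (Rxra). SHP (Nr0b2) lacks a DNA-binding domain, is induced by FXR and represses other factors, among them those that drive Cyp7a1, the rate-limiting enzyme of bile acid synthesis. The aryl hydrocarbon receptor (Ahr) is not a nuclear receptor but a ligand-activated factor that pairs with Arnt and induces Cyp1a genes, and Por is the reductase that passes electrons to the microsomal P450s that these receptors induce.

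Promoter sequences are shown for Nr1i3, the only one of the 10 called, for Nr1i2, the closely related receptor that was not, and for Nr0b2, whose samples were the most scattered. They are RefSeq sequences on the GRCr8 build, read 5′ to 3′ on the plus strand, up to the base before the first annotated base of the gene. The positions are chr13:86165170-86165326 for Nr1i3, chr11:75965467-75965716 for Nr1i2 and chr5:151062910-151063159 for Nr0b2. Capitals mark matches to the 6 motifs named after the sequences.
Nr1i3: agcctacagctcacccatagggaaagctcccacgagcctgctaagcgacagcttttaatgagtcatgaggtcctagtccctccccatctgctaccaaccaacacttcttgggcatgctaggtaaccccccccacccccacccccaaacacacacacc
Nr1i2: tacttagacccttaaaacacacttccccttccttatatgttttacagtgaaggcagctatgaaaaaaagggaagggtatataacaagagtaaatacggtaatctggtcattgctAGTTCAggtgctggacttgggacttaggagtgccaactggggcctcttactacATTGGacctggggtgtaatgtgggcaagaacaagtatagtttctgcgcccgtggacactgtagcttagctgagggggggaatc
Nr0b2: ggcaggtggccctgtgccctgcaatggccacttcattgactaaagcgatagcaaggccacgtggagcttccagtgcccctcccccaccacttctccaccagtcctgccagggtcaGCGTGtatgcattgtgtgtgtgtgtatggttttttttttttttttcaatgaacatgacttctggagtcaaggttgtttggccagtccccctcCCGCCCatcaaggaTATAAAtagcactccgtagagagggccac

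Motifs were searched on both strands of the RefSeq window of 300 bases around each start, which was present for 9 of the 10 genes, Nr1h4 being the exception. None of the 6 motifs was found in the Nr1i3 window. The half-site AGTTCA was found in those of Nr1i2 and Nr1h3 and in 14.5% of all 33469 promoters, and the half-site AGGTCA in that of Por alone, against 16.2% of all. The dioxin response core GCGTG was found in Arnt, Nr0b2, Ppara and Por (29.7% of all), and the GC box GGGCGG in Ahr, Rxra, Nr0b2, Ppara and Por (33.1% of all). A TATA box, TATAAA, was found in Nr0b2 alone (14.2% of all), and CCAAT in Nr1i2, Arnt and Nr0b2 (37.5% of all), in Nr0b2 only after the start and so outside the printed stretch. In Por the AGGTCA match overlapped a GCGTG match. The windows of Rxra, Ahr and Ppara held 84.7%, 74.7% and 73.7% G and C, those of Nr1i3 and Nr1i2 54.7% and 47.7%, and the median over all promoters was 51.7%. A match is a run of letters and says nothing of what binds there.

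CAR, the product of Nr1i3, was the only one of the 10 whose transcript passed the test, and only between MHs and control SHPCs, where 0.216% of all tested probes were called higher and 0.917% lower. The Nr1i3 level was 0.41 and -0.46 in the MHs. In control SHPCs it was -2.20, -1.81 and -2.24. In BM-MC SHPCs it was -0.63, -0.72 and -1.58. The MHs were highest, the BM-MC SHPCs lay between, the control SHPCs were lowest, and no sample of one group entered the range of another. On the unscaled signal the MHs read 1990 and 1233, the control SHPCs 334, 497 and 265, and the BM-MC SHPCs 1122, 869 and 456. There BM-MC SHPC 3 lay below control SHPC 2, so control and BM-MC SHPCs were separate only after scaling.

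The Nr1i3 mean was -0.022 ± 0.62 (SD, n = 2) in MHs and -2.08 ± 0.24 (SD, n = 3) in control SHPCs, a difference of 2.06 on the log2 scale or 4.17-fold (standard error 0.36, 95% confidence interval 1.23 to 2.90, adjusted p = 0.049 by limma). A second Nr1i3 probe gave 1.97 (adjusted p = 0.038 by limma). The mean in BM-MC SHPCs was -0.98 ± 0.52 (SD, n = 3). It exceeded the control mean by 1.11 (standard error 0.28, interval 0.43 to 1.78), which did not pass (adjusted p = 0.18 by limma). The second probe gave 1.08 (adjusted p = 0.17 by limma). Between BM-MC SHPCs and MHs the difference was -0.96 (interval -1.79 to -0.12, adjusted p = 0.34 by limma), and it was -0.52 without MH 1 and -1.39 without MH 2. These 3 comparisons share samples pairwise and are not independent of each other.

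The call for Nr1i3 was borderline. It held in 7 of 15 other settings, and was lost with the array set or the replicate numbers as a block, among others. Leaving out 1 sample at a time, the difference between MHs and control SHPCs ran from 1.63 to 2.50 and the adjusted p by limma from 0.022 to 0.27. It passed in 1 of 8 such fits, without BM-MC SHPC 3, and was lost without each of the 2 MHs, each of the 3 control SHPCs and BM-MC SHPCs 1 and 2. Within the first set of 4 arrays on the slide, MHs exceeded control SHPCs 1 and 2 by 1.98. Within the second, BM-MC SHPCs exceeded control SHPC 3 by 1.26.

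**Figure D1:**
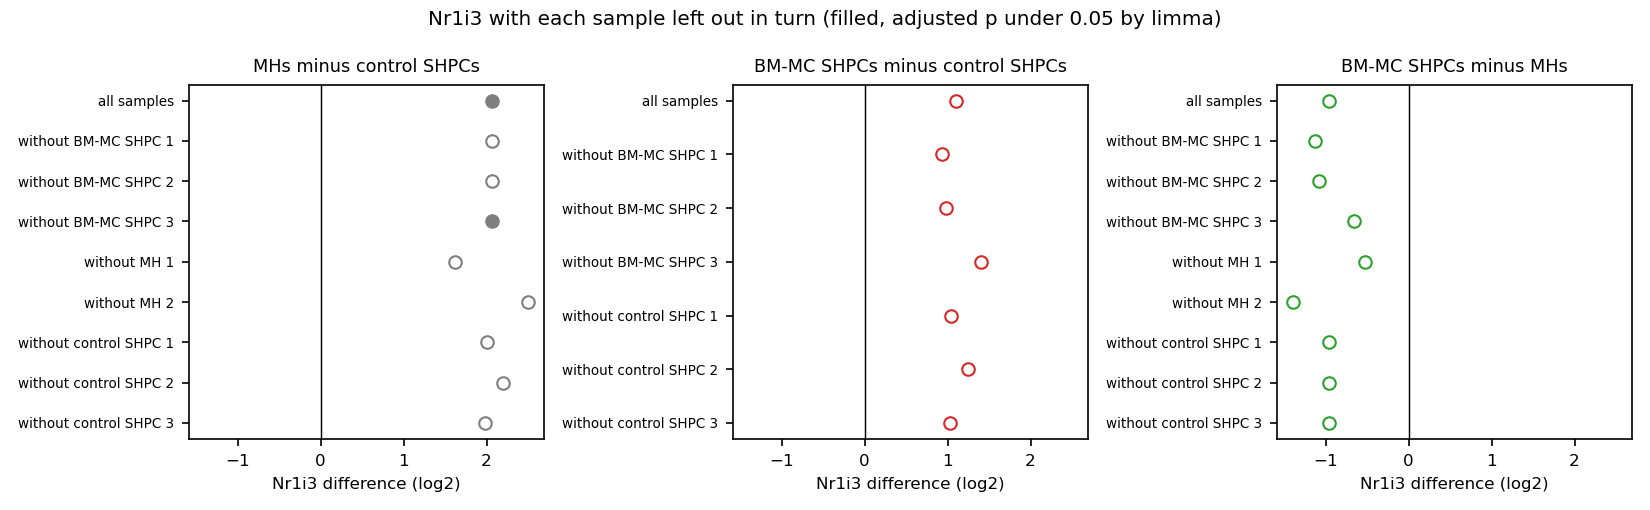
The log2 difference of Nr1i3 in the 3 comparisons, from all samples and with each sample left out in turn. Filled points passed an adjusted p under 0.05 by limma. Between MHs and control SHPCs the values ran from 1.63 to 2.50, and every value in the other comparisons kept its sign.

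Mean levels of markers of liver zones and of other cells also differed between these groups. The 7 tested pericentral markers were all at a higher mean in MHs than in control SHPCs, with a median difference of 1.14 and 0 called by limma (5 were higher at an unadjusted p under 0.05, against 11% of all probes). Their mean level was 0.94 to 1.60 in MHs, 0.069 to 0.38 in control SHPCs and 0.095 to 0.84 in BM-MC SHPCs. The 8 periportal markers were all at a lower mean in MHs, by a median of 0.53 with 0 called by limma (4 lower unadjusted, against 8.21% of all probes), and their mean level was 3.23 to 3.33 in MHs, 3.75 to 4.22 in control SHPCs and 3.68 to 4.23 in BM-MC SHPCs. Of the 11 macrophage markers 10 were at a higher mean in MHs than in control SHPCs. The median difference was 0.63 with 0 called by limma (7 higher unadjusted, against 11% of all probes). Their mean level was 1.61 to 1.86 in MHs, 0.86 to 1.38 in control SHPCs and 1.03 to 1.57 in BM-MC SHPCs. Of 10 proliferation genes, limma called 7 lower in MHs than in controls and 6 lower in MHs than in BM-MC SHPCs, against 0.917% and 0.32% of all probes, and Ccnb1, a mitotic cyclin, differed by -3.28 in the first of these comparisons (adjusted p = 0.0025 by limma). Of the pericentral markers Lgr5 was too dim to be tested, while all 11 macrophage markers were tested.

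Between BM-MC and control SHPCs 10 of 10 proliferation genes had a negative difference, with a median of -0.93 and 0 called by limma (8 lower unadjusted, against 5.92% of all probes). Its mean level was -4.07 and -3.83 in MHs, -1.40 to -1.03 in control SHPCs and -2.59 to -1.69 in BM-MC SHPCs. The 5 blood cell markers had a median difference of -1.30 between BM-MC and control SHPCs, with 4 of 5 negative and 0 called by limma (3 lower unadjusted, against 5.92%), and a mean level of -3.08 and -1.66 in MHs, -1.98 to -1.78 in control SHPCs and -3.12 to -2.86 in BM-MC SHPCs. The 5 biliary markers had a median difference of -0.95 between MHs and control SHPCs, with 5 of 5 negative and 0 called by limma (2 lower unadjusted, against 8.21%), and a mean level of -5.51 and -4.95 in MHs, -4.38 to -4.08 in control SHPCs and -4.87 to -4.02 in BM-MC SHPCs. The mean level of the 7 endothelial markers was 0.20 to 0.36 in MHs, -0.050 to 0.14 in control SHPCs and 0.014 to 0.29 in BM-MC SHPCs, and that of the 9 stellate markers was -1.61 to -1.30, -1.43 to -1.28 and -1.43 to -0.93 in the same order, with 0 called by limma in either list. The part of these differences in the Nr1i3 result was not tested.

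Transcripts of PXR, the closest relative of CAR among the 10, did not pass in any comparison. The Nr1i2 level was 3.78 and 4.05 in MHs, 4.01, 4.22 and 4.52 in control SHPCs, and 4.32, 4.61 and 4.60 in BM-MC SHPCs. Every BM-MC SHPC was above both MHs, and the control SHPCs overlapped both of the other groups. The difference between BM-MC SHPCs and MHs was 0.60 or 1.51-fold (standard error 0.19, interval 0.16 to 1.03, adjusted p = 0.30 by limma), and 0.19 with the array set as a block. MHs and control SHPCs differed by -0.34 (adjusted p = 0.36 by limma) and BM-MC and control SHPCs by 0.26 (adjusted p = 0.46 by limma), and within the second array set the latter was -0.0094. The directions in these 2 contrasts with MHs were therefore opposite for Nr1i3 and Nr1i2, a difference that was not tested.

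RXRα, the shared partner, had an Rxra level of -2.66 and -3.65 in MHs, a wider gap than among the control SHPCs at -3.30, -3.23 and -3.10. In BM-MC SHPCs it was -3.24, -2.46 and -2.96. All 3 groups overlapped, and the differences were 0.055 for MHs and 0.32 for BM-MC SHPCs against control SHPCs (adjusted p = 0.94 and 0.46 by limma), and 0.27 for BM-MC SHPCs against MHs (adjusted p = 0.74 by limma). The interval of the first was -0.70 to 0.81, so differences of either sign were compatible with these samples.

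**Figure D2:**
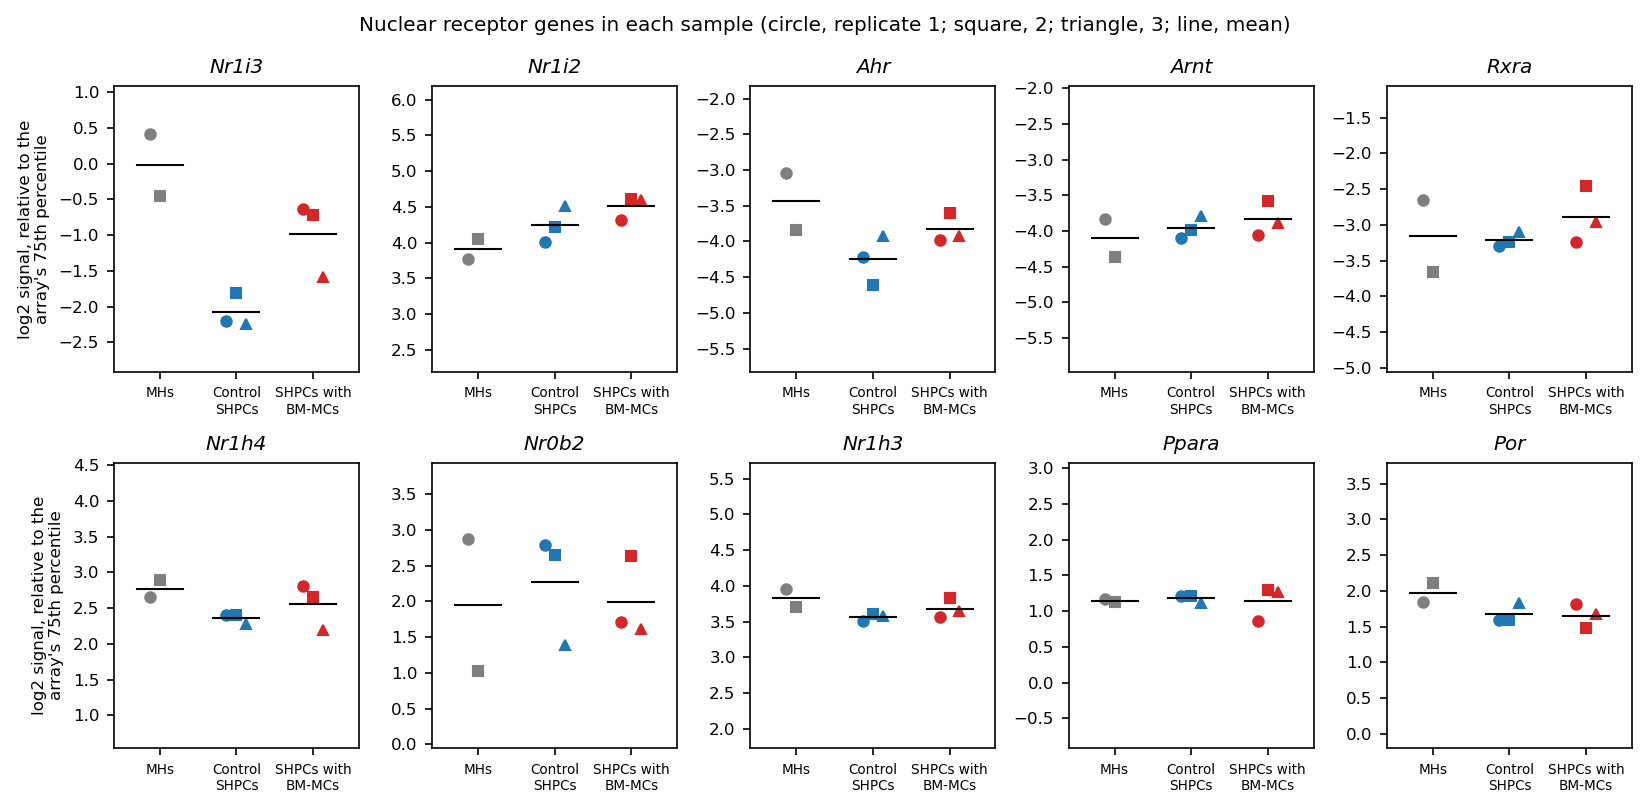
Level of each of the 10 genes (log2 signal relative to the 75th percentile of the array) in every sample of MHs, control SHPCs and BM-MC SHPCs. Points are samples, lines are group means and each panel spans 4 log2 units, so distances can be compared between panels while heights cannot. Nr1i3 separates the 3 groups, and Nr0b2 is scattered within each of them.

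The Ahr level was -3.04 and -3.84 in MHs, -4.21, -4.61 and -3.93 in control SHPCs, and -3.98, -3.60 and -3.92 in BM-MC SHPCs. Both MHs were above every control SHPC, by a mean of 0.81 or 1.75-fold (standard error 0.28, interval 0.15 to 1.47), with a p of 0.023 before and 0.20 after adjustment by limma. The difference was 0.41 without MH 1 and 1.205 without MH 2. Over 15 other settings it ran from 0.38 to 0.97, with 0 of them giving a call. BM-MC SHPCs overlapped the other groups and differed by 0.42 from control SHPCs (adjusted p = 0.36 by limma), and by 0.099 from control SHPC 3 alone, the control in the same array set. Between BM-MC SHPCs and MHs the Ahr difference was -0.39 (interval -1.06 to 0.27, adjusted p = 0.57 by limma). Its partner Arnt was at -3.83 and -4.36 in MHs, -4.10, -3.99 and -3.79 in control SHPCs, and -4.05, -3.58 and -3.89 in BM-MC SHPCs. The 3 groups overlapped, and no difference exceeded 0.26 in size. A second Arnt probe was not well above background on any of the 7 arrays with complete marks and was not tested.

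Among the bile acid sensors, the Nr1h4 level was 2.65 and 2.89 in MHs, 2.41, 2.41 and 2.28 in control SHPCs, and 2.81, 2.66 and 2.19 in BM-MC SHPCs. Both MHs were above every control SHPC, and the BM-MC SHPCs overlapped both groups. The difference between MHs and control SHPCs was 0.40 (interval -0.054 to 0.86, adjusted p = 0.31 by limma), and a second Nr1h4 probe gave 0.32 with the same separation. BM-MC SHPCs differed by 0.19 from control SHPCs and by -0.22 from MHs (adjusted p = 0.61 and 0.65 by limma). With 1 sample left out these ran from 0.059 to 0.37 and from -0.34 to -0.032, and without BM-MC SHPC 3, the lowest of its group, they were 0.37 and -0.032. The Nr0b2 level was 2.87 and 1.02 in MHs, 2.79, 2.65 and 1.38 in control SHPCs, and 1.71, 2.63 and 1.62 in BM-MC SHPCs. Each group held high and low samples, and the SD was 1.31 in MHs (n = 2), 0.77 in control SHPCs and 0.56 in BM-MC SHPCs (n = 3 each). MHs minus control SHPCs was -0.33, with an interval of -1.82 to 1.16 (adjusted p = 0.81 by limma). The difference between BM-MC SHPCs and control SHPCs was -0.29 over all 6 samples and 0.60 within the second array set, so its sign depended on which controls were used.

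Neither LXRα nor PPARα transcripts passed in any comparison. The Nr1h3 level was 3.95 and 3.71 in MHs, 3.50, 3.60 and 3.58 in control SHPCs, and 3.56, 3.83 and 3.65 in BM-MC SHPCs. The MHs were above every control SHPC, by a mean of 0.27 (interval -0.048 to 0.59, adjusted p = 0.32 by limma), and the BM-MC SHPCs, which overlapped both groups, differed by 0.12 from control SHPCs and by -0.15 from MHs (adjusted p = 0.62 and 0.65 by limma). The first was 0.044 without BM-MC SHPC 2 and the second -0.029 without MH 1 and -0.27 without MH 2. The Ppara level was 1.17 and 1.12 in MHs, 1.21, 1.21 and 1.12 in control SHPCs, and 0.87, 1.30 and 1.27 in BM-MC SHPCs. Its group means spanned 0.037 on the log2 scale, the narrowest range among the 10 genes by the brightest tested probe of each. The 3 Ppara probes did not point one way, since MHs minus control SHPCs was -0.037, -0.24 and 0.10 with adjusted p values of 0.92, 0.61 and 0.85 by limma. By the second of these probes both MHs lay below every control SHPC. Its group means were 0.52 in MHs, 0.77 in control SHPCs and 0.83 in BM-MC SHPCs.

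The Por level was 1.84 and 2.11 in MHs, 1.59, 1.59 and 1.84 in control SHPCs, and 1.81, 1.48 and 1.67 in BM-MC SHPCs. The MHs were above every SHPC sample of either kind, although MH 1 exceeded control SHPC 3 only in the third decimal. The difference was 0.31 against control SHPCs (adjusted p = 0.33 by limma) and -0.32 for BM-MC SHPCs minus MHs (adjusted p = 0.42 by limma). BM-MC and control SHPCs differed by -0.017 (interval -0.35 to 0.32).

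**Figure D3:**
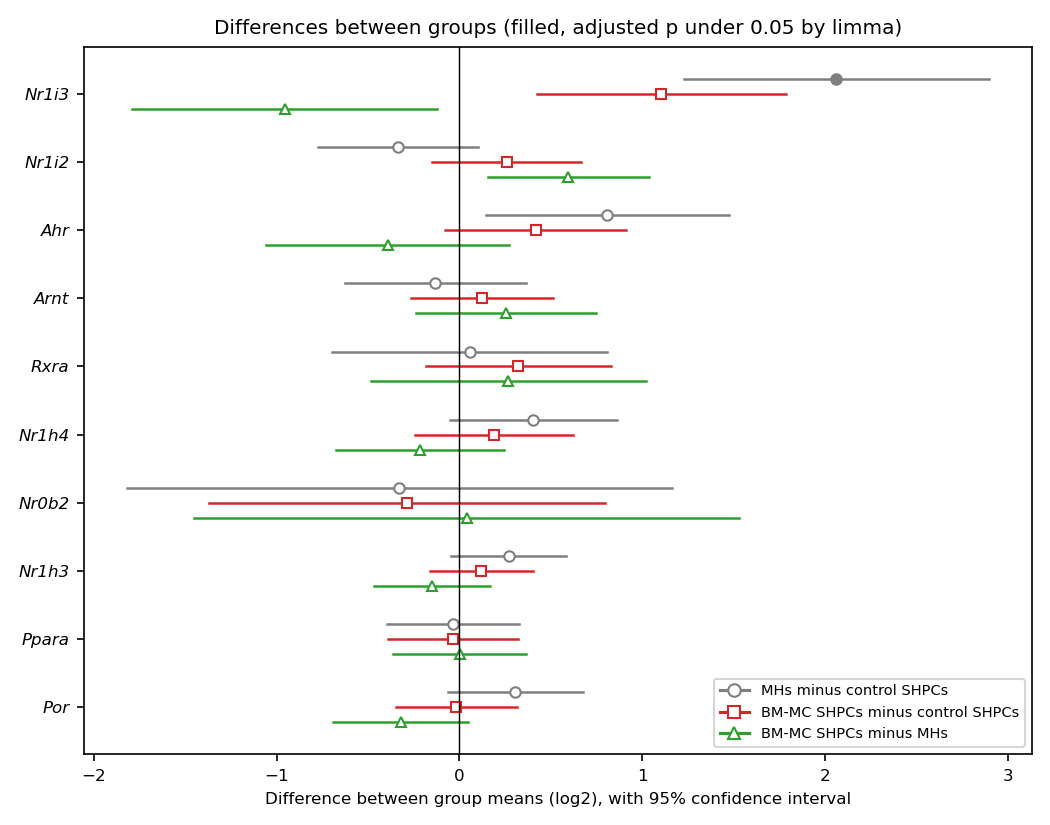
Difference between group means of each gene on the log2 scale (x axis) with its 95% confidence interval from limma, for the 3 comparisons. The only filled point, an adjusted p under 0.05, is Nr1i3 in MHs minus control SHPCs at 2.06, and the widest intervals are those of Nr0b2.

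Counted together, 1 of the 10 genes was called higher and 0 lower in MHs than in controls, where limma called 0.216% of all tested probes higher and 0.917% lower. At an unadjusted p under 0.05, Nr1i3 and Ahr were higher and none was lower, against 11% and 8.21% of all probes. In 5 of the 10 (Nr1i3, Ahr, Nr1h4, Nr1h3 and Por) both MHs were above every control SHPC and in 0 below, against 22.7% and 18.7% of all probes. With 1 sample left out the uncalled differences ran from -0.47 to -0.20 for Nr1i2, 0.28 to 0.52 for Nr1h4, 0.15 to 0.39 for Nr1h3 and 0.17 to 0.44 for Por. The median difference over the 10 genes was 0.16, and over all tested probes it was 0.032. It varied with the MHs included, and was 0.045 without MH 1 and 0.34 without MH 2.

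For BM-MC against control SHPCs limma called 0 of the 10, with 0.0216% of all probes higher and 0% lower, and the methods' t-test after adjustment also called 0. Only Nr1i3 had an unadjusted p under 0.05, in the higher direction, as had 10.7% of all probes, while 5.92% were lower. Only Nr1i3 was free of overlap, with BM-MC SHPCs above, as were 13.1% of all probes, while 11.7% lay below. The median over the 10 genes was 0.16 against 0.018 over all probes. With arrays scaled to their medians, which shifts all probes alike, these were -0.035 and -0.17. Without BM-MC SHPC 2 the median over the 10 genes was 0.089. With 1 sample left out the differences ran from 0.14 to 0.39 for Nr1i2, 0.24 to 0.58 for Ahr, 0.11 to 0.50 for Rxra and -0.73 to -0.030 for Nr0b2.

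For BM-MC SHPCs against MHs limma again called 0 of the 10, as did the methods' t-test after adjustment, and limma called 0.32% of all probes higher and 0.0173% lower. At an unadjusted p under 0.05 Nr1i2 was higher and Nr1i3 lower, against 7.33% and 5.95% of all probes. Nr1i2 lay without overlap above the MHs and Nr1i3 and Por below, against 16.1% and 16.3% of all probes. No test was made of these shares. The median was -0.074 against 0.0030 over all, and it was 0.013 without MH 1, 0.025 without BM-MC SHPC 1, -0.21 without MH 2, -0.23 without BM-MC SHPC 2 and -0.047 without BM-MC SHPC 3. MHs and BM-MC SHPCs lay in different array sets, and with the set as a block the difference was -0.87 for Ahr, 0.0039 for Arnt, 0.095 for Rxra, -0.092 for Nr1h4, 1.37 for Nr0b2, 0.089 for Ppara and -0.57 for Por, with 0 of the 10 called by limma. With 1 sample left out the Por difference ran from -0.46 to -0.19.

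Known targets of PXR and CAR were counted as a list of 18 tested genes. In MHs against control SHPCs 2 were called higher and 0 lower, against 0.216% and 0.917% of all probes, 16 had a positive and 2 a negative difference, against 53.8% positive over all probes, and the median was 0.60 against 0.032 over all tested probes. Between BM-MC and control SHPCs 0 were called by limma (1 higher and 1 lower at an unadjusted p under 0.05, against 10.7% and 5.92% of all probes) and the median was 0.11 against 0.018 over all tested probes (0.18 without control SHPC 2). With arrays scaled to their medians that median was -0.084 against -0.17 over all. With the array set as a block it was 0.19 against -0.021. Between BM-MC SHPCs and MHs 1 was called lower, against 0.0173% of all probes, and the median was -0.51 against 0.0030. Cyp2b1, a classic CAR target, was not among the tested genes, and its close relative Cyp2b2 may share signal with it because the sequences of the pair are nearly identical.

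Cyp2b2, a phenobarbital-inducible P450, was at 2.79 and 1.53 in MHs, -0.29, -0.20 and -0.50 in control SHPCs, and 1.22, 1.09 and 0.50 in BM-MC SHPCs. Its 3 groups did not overlap and stood in the same order as those of Nr1i3. MHs exceeded control SHPCs by 2.49 (standard error 0.37, adjusted p = 0.031 by limma), and BM-MC SHPCs exceeded control SHPCs by 1.27, which did not pass (adjusted p = 0.12 by limma). Abcc3, a basolateral exporter of conjugates, was at -3.09 and -3.34 in MHs, -5.10, -5.40 and -4.99 in control SHPCs, and -4.01, -4.37 and -5.13 in BM-MC SHPCs. The MHs were above all SHPCs, by 1.95 over control SHPCs (adjusted p = 0.038 by limma), and BM-MC SHPC 3 lay within the control range. Gsta2, a glutathione transferase, was at 3.60 and 3.35 in MHs, 2.80, 2.87 and 2.63 in control SHPCs, and 2.51, 2.30 and 2.55 in BM-MC SHPCs. Here the BM-MC SHPCs were lowest, and they differed from MHs by -1.02 (adjusted p = 0.046 by limma) and from control SHPCs by -0.31 (adjusted p = 0.29 by limma).

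Each of the 3 calls was lost when certain single samples were left out. Cyp2b2 passed in 3 of 8 fits with 1 sample left out (difference 1.86 to 3.12) and was lost without MH 1, each control SHPC or BM-MC SHPC 2. Abcc3 passed in 2 of 8 (1.82 to 2.08) and was lost without each MH, each control SHPC or BM-MC SHPC 2. Gsta2 passed in 0 of 8 (-1.15 to -0.90), with an adjusted p by limma between 0.062 and 0.30. All 3 genes kept their direction in these fits. With the array set or the replicate numbers as a block, or with the methods' t-test, all 3 calls were lost. Over 14 other settings the Abcc3 difference ran from 0.97 to 2.04.

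The 2 negative differences, named here after their values were seen, were those of the PXR targets Cyp3a2 and Cyp3a18. Cyp3a2 was at -2.999 and -2.75 in MHs, 0.56, 0.79 and 1.15 in control SHPCs, and -1.51, -0.42 and 2.73 in BM-MC SHPCs. Both MHs were below all SHPCs, and the BM-MC SHPCs spread widely around the controls. MHs minus control SHPCs was -3.71, with an adjusted p of 0.15 by limma. Cyp3a18 differed by -1.70 (adjusted p = 0.20 by limma).

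**Figure D4:**
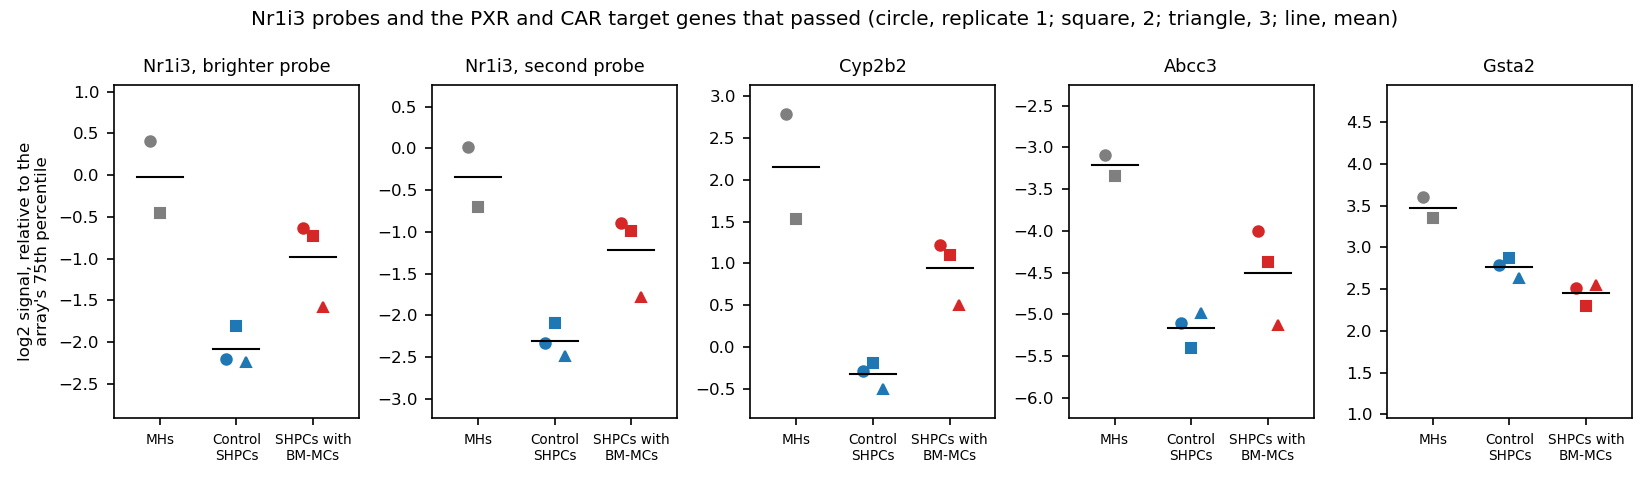
Level of both Nr1i3 probes and of the 3 PXR and CAR target genes that passed a test (log2 signal relative to the 75th percentile of the array) in every sample. Points are samples and lines are group means. Cyp2b2 shows the order of Nr1i3, with MHs highest and control SHPCs lowest, whereas Gsta2 is lowest in BM-MC SHPCs.

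No gene of the other target lists was called by limma in any comparison. Of the 7 tested targets of the aryl hydrocarbon receptor, 2 were higher and 1 lower at an unadjusted p under 0.05 between MHs and control SHPCs, where 11% of all probes were higher and 8.21% lower. Cyp1a2, which oxidises caffeine and aromatic amines, was at 5.23 and 4.92 in MHs, 4.28, 4.26 and 4.37 in control SHPCs, and 4.52, 4.70 and 4.36 in BM-MC SHPCs. It was higher in each MH than in any SHPC sample, and the difference from control SHPCs was 0.77 (adjusted p = 0.068 by limma). Cyp1a1 was not well above background in either MH. Each MH was therefore set at the lowest level marked well above background on its array. Against these, Cyp1a1 was 3.48-fold higher in control SHPCs and 4.06-fold higher in BM-MC SHPCs. The measured difference of MHs minus control SHPCs was -3.14 (adjusted p = 0.14 by limma). That of BM-MC SHPCs minus MHs was 3.36 (adjusted p = 0.23 by limma). Neither passed.

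Of the 11 tested targets of FXR and SHP, 4 were higher and 1 lower at an unadjusted p under 0.05 between MHs and control SHPCs, against 11% and 8.21% of all probes. The list includes Cyp7a1, which SHP represses, so its counts and median have no single expected direction. Pltp, a phospholipid transfer protein that is also an LXR target, differed by 1.01 (adjusted p = 0.14 by limma) and Cyp27a1, a mitochondrial sterol hydroxylase, by 0.67 (adjusted p = 0.16 by limma). Cyp7a1, named here because SHP represses it and not for its rank, was at 0.43 and -0.078 in MHs, -1.98, -1.94 and -1.51 in control SHPCs, and -0.82, -0.44 and -2.85 in BM-MC SHPCs. The MHs exceeded all SHPC samples, and the difference from control SHPCs was 1.99 (adjusted p = 0.18 by limma). Of the 10 LXR targets 2 were higher at an unadjusted p under 0.05 in the same comparison, against 11% of all probes, namely Pltp and the cholesterol exporter Abcg1, which differed by 0.62 (adjusted p = 0.16 by limma).

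Of the 19 tested PPARα targets 4 were higher and 1 lower at an unadjusted p under 0.05 between MHs and control SHPCs, against 11% and 8.21% of all probes. Between BM-MC and control SHPCs 2 were higher and 0 lower, against 10.7% and 5.92%. Vnn1, a pantetheinase, was at 0.78 and 0.59 in MHs, -0.66, -0.43 and -0.62 in control SHPCs, and 0.89, 0.22 and -0.29 in BM-MC SHPCs. Every control SHPC was below every other sample, and the adjusted p by limma was 0.12 for MHs and 0.25 for BM-MC SHPCs against control SHPCs. Ehhadh, a peroxisomal enzyme of fatty acid oxidation, was 0.68 higher on average in BM-MC SHPCs than in control SHPCs (adjusted p = 0.21 by limma). The 6 other acceptors and partners of Por's electron chain, among them haem oxygenase (Hmox1) and cytochrome b5 (Cyb5a), all had a positive mean difference between MHs and control SHPCs, of 0.68 for Hmox1 and 0.26 for Cyb5a (adjusted p = 0.27 and 0.28 by limma). Of the 20 tested partners and co-regulators of the receptors 2 were higher and 0 lower at an unadjusted p under 0.05 between MHs and control SHPCs, again against 11% and 8.21% of all probes, namely Pparg at 0.99 and the coactivator Ncoa3 at 0.49 (adjusted p = 0.18 and 0.20 by limma).

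The median differences between MHs and control SHPCs were 0.28 for the targets of the aryl hydrocarbon receptor, 0.36 for those of FXR and SHP, 0.41 for those of LXR, 0.07 for those of PPARα, 0.23 for the partners of Por and 0.093 for the partners and co-regulators, against 0.032 over all tested probes. For BM-MC against control SHPCs they lay between -0.046 and 0.16, against 0.018 over all tested probes. With 1 sample left out they ran from 0.089 to 0.20 for the aryl hydrocarbon receptor, -0.028 to 0.10 for FXR and SHP, -0.12 to 0.16 for LXR, 0.11 to 0.21 for PPARα, -0.0027 to 0.11 for the partners of Por and 0.042 to 0.11 for the partners and co-regulators, and with arrays scaled to their medians they lay between -0.24 and -0.035, against -0.17 over all probes, so no direction is read from them. Single samples moved some of the medians between MHs and control SHPCs. Without MH 1 the FXR and SHP median was 0.22 and the PPARα median 0.23. Without MH 2 the LXR median was 0.26, that of the partners of Por 0.37 and that of the partners and co-regulators 0.18. The last was 0.15 without control SHPC 1 and 0.15 without control SHPC 3, and the PPARα median was 0.028 without control SHPC 2 and 0.13 without control SHPC 3. Other processing moved some of them too. The aryl hydrocarbon receptor median was 0.53 over the 4 targets well above background on all 7 arrays with complete marks, and the FXR and SHP median was 0.23 over the 10 that met the same filter and 0.19 with normexp. The PPARα median was 0.13 with quantile normalization or the array set as a block, 0.16 without scaling and 0.11 with array weights, and that of the partners and co-regulators was 0.18 without scaling and 0.15 with array weights or the array set as a block.

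The genes whose levels ran most like that of Nr1i3 over the 8 samples, out of 14435 named genes, included Aox1, an aldehyde oxidase, with a Pearson correlation of 0.999, and Abca2, a lipid transporter, with 0.989. For Ahr, the gene with the next widest range of group means, they were Prpf19, a splicing factor, at 0.962, Ccl9, a chemokine, at 0.961, and Ghr, the growth hormone receptor, at 0.954. The samples share a slide, array sets and groups, and correlations of this size are picked from many, so these are descriptions only.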

How the data were processed

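Total RNA of microdissected cells was labelled in 1 colour and hybridised to Agilent rat arrays. The authors deposited the intensity that Agilent Feature Extraction 10.7 (per the submitters' processing notes) gives after background subtraction, with no scaling between arrays. It was read from a value table, whose entries differed from the scanner files by at most 1.19e-06 in relative terms. Control SHPC 2 had only 20903 of 62976 features in its scanner file, and background marks of that array were ignored. The share of marked spots well above background ran from 57 to 61.5% over the arrays, with 0 saturated spots.

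Deposited signals were taken to the log2 scale and the 75th percentile of each array was subtracted. Control spots and spots marked as outliers were dropped, and repeated spots of a probe were averaged. A probe was tested if 3 or more of the other 7 arrays marked it well above background. The test was limma 3.58.1 in R 4.3.3, fitted to all 8 samples for comparisons with MHs and to the 6 SHPC samples for the effect of BM-MCs. The few arrays limit the precision. The steps were tested on simulated data. Planted log2 differences of 1 were recovered in 39% for BM-MC against control SHPCs and in 43% for MHs against control SHPCs. For BM-MC SHPCs against MHs 37% were recovered. Of planted differences of 2 on that scale, 86%, 88% and 81% were recovered in the same order. False calls numbered 5, 10 and 12.

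The 10 genes and all lists were chosen with earlier results of these data known. All 10 genes are named. Of other lists, genes that passed are named, up to 4 by lowest p, or else up to 2 with the lowest p. For the 2 genes with the widest range of group means, the 3 most correlated genes are named, except 1 that is not reported here. The alternatives covered scaling, filters on dim and outlier spots, background correction, blocks, samples in the fit, the test and the probe choice. Their use on listed genes that passed was chosen after seeing the data. Promoters came from RefSeq tables on GRCr8.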

Additional observations from a re-analysis of the deposited data

How the results depend on the processing

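The number of the 10 genes called was 0 under each of the 15 other settings for BM-MC against control SHPCs and for BM-MC SHPCs against MHs, and 0 with each sample left out. For MHs against control SHPCs it was 1 and fell to 0 with quantile normalization, no filter on dim probes, outlier spots kept, normexp with quantile normalization on 7 arrays, the array set as a block, only the 2 groups compared and the methods' t-test, and it was 0 to 1 with each sample left out. In these settings the Nr1i3 difference stayed between 1.97 and 2.06 while its adjusted p, by limma or the methods' t-test, rose to between 0.053 and 0.20. The cause was not tested. It remained called in 7 of the 15 settings, in which it ran from 2.01 to 2.15.

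Replicate numbers were not taken as pairs, and the check made on them cannot decide whether they pair samples. Deviations of same-numbered samples correlated between -0.13 and 0.17 over 7 pairs. The pairs with MHs carry little, because the deviations of 2 MHs mirror each other. Same-numbered control and BM-MC SHPCs correlated at 0.13, 0.078 and 0.17. Of the 3 control SHPCs, 2 correlated best with the BM-MC sample of their own number. With the replicate block the count for MHs against control SHPCs was 0 (Nr1i3 at 1.87, adjusted p = 0.11 by limma), and the Ppara difference between BM-MC SHPCs and MHs turned to -0.016. The block changed no other call among the 10 genes.

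Over 14 other settings Cyp2b2 and Abcc3 passed in 9 each and Gsta2 in 4, with differences of 2.34 to 2.58, 0.97 to 2.04 and -1.22 to -0.82, an alternative run added after seeing the data. All of these calls were lost with no filter on dim probes, the array set as a block, the replicate block and the methods' t-test. Signs turned only in differences that were not called. Array medians, which moved the median of all probes for BM-MC SHPCs from 0.018 to -0.17 against control SHPCs and from 0.0030 to -0.20 against MHs, turned Arnt to -0.068, Nr1h3 to -0.072 and Nr1h4 to -0.0029 against control SHPCs, and Nr0b2 to -0.16 and Ppara to -0.20 against MHs. Without scaling, which moved the median of all probes to 0.12 for MHs against control SHPCs, Nr0b2 was -0.040 and Ppara -0.080 against MHs, and Ppara was 0.051 in MHs against control SHPCs. For BM-MC against control SHPCs, quantile normalization gave Arnt -0.038, Por 0.055 and Ppara 0.0058, normexp gave -0.037, 0.0059 and 0.0049 for the same genes, and the array set as a block gave Arnt -0.044, Nr0b2 0.60, Nr1i2 -0.0094 and Ppara 0.023. Array weights gave Por 0.037 there and Ppara -0.010 against MHs, and averaging all probes gave Ppara 0.072. With each sample left out, signs turned within ranges of -0.0059 to 0.23 for Arnt, -0.11 to 0.10 for Ppara and -0.095 to 0.070 for Por between BM-MC and control SHPCs, of -0.40 to 0.14 for Arnt, -0.44 to 0.55 for Rxra and -1.25 to 0.59 for Nr0b2 between MHs and control SHPCs, and of -0.79 to 0.0036 for Ahr, -0.013 to 0.52 for Arnt, -0.23 to 0.77 for Rxra, -0.88 to 0.96 for Nr0b2 and -0.075 to 0.14 for Ppara between BM-MC SHPCs and MHs.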
